A study of Arabidopsis thaliana with 8 samples.

Results

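Seedlings carrying both cob-6 and sfr6-3 were compared with seedlings carrying sfr6-3 alone, so that the only named difference between the groups was the cob-6 allele, read where MED16 was already reduced. The comparison used 4 of the 8 libraries of the series: sfr6-3 replicates 1 and 2 and cob-6sfr6-3 replicates 1 and 2. The series profiled RNA of whole Arabidopsis thaliana seedlings, 7 days old and grown in continuous light, from Col-0 wild type (WT), cob-6, sfr6-3 and cob-6sfr6-3, with 2 libraries each. Both compared groups carry sfr6-3, no treatment is named, and no wild-type library enters the fold. Nothing in the labels says whether the replicates came from separate plantings, so each p-value reflects the spread among the libraries fitted, which may be technical. For this comparison the fit held the 4 compared libraries and the 2 of cob-6, which add to the estimate of the spread only.

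COB encodes COBRA, a glycosylphosphatidylinositol-anchored protein of the outer cell surface that is needed for the oriented deposition of cellulose microfibrils in expanding cells, above all in the root. MED16, also called SFR6, is a subunit of the tail of the Mediator complex, which links transcription factors to RNA polymerase II; in Arabidopsis it is known for its part in cold acclimation and in iron and defence responses. The series names MED16 as a suppressor of the cobra mutant, and this comparison answers what cob-6 still changed once MED16 was low.

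The targeted genes were checked first. Levels are given in CPM, the reads of a gene as a rate of all gene reads of its library, with TMM scaling between libraries. COB (AT5G60920, chromosome 5, 24511196 to 24514129 on the forward numbering of the deposited table) stood at 187 CPM in both sfr6-3 libraries and at 82.5 and 70.3 CPM in the double mutant. The double mutant libraries lay near the 68.3 and 66.9 CPM of the cob-6 single mutant. The log2 fold change of COB was -1.29 ± 0.15 (SE, 2 libraries per genotype; adjusted p = 0.00185 by edgeR's quasi-likelihood test with Benjamini-Hochberg adjustment over all tested genes, the test meant wherever an adjusted p is given here). The gene fell whichever 1 of the 4 compared libraries was left out, with an adjusted p of at most 0.0304, and missed the threshold, at 0.0511, when the WT libraries were added to the fit. MED16 (AT4G04920, chromosome 4, 2497644 to 2505535) stood at 8.58 and 8.45 CPM in sfr6-3 and at 10.8 and 7.48 CPM in the double mutant. It stood at 29.3 and 39.1 CPM in cob-6 and at 34.5 CPM in WT replicate 2. WT replicate 1, at 24.3 CPM, is not independent of the other libraries, as described below. The 2 compared groups overlapped for MED16, and its log2 fold change was 0.10 ± 0.23 (adjusted p = 0.892). All 4 compared libraries lay below both cob-6 libraries and WT replicate 2.

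The 4 compared libraries held between 24437892 and 37744914 total gene reads, and 3 reads corresponded to 0.0795 to 0.123 CPM before scaling. The replicates of sfr6-3 correlated at 0.971 across genes (Pearson's r of log2 CPM) and those of the double mutant at 0.946. More than 1 log2 unit separated the replicates for 7.53% of genes in sfr6-3 and 13.9% in the double mutant. Double mutant replicate 2 stood apart on the first principal component of the 6 mutant libraries, at 86.1 against -35.3 to 10.9 for the others, and replicate 1 held the highest intron share of the 4 compared libraries, at 3.05% against 2.51% to 2.57%. RNA came from whole seedlings, so fewer cells of a type and less RNA per cell cannot be told apart.

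Of 21213 genes tested, 77 passed an adjusted p of 0.05, which is 0.363%. Of these, 52 were higher in the double mutant (0.245%) and 25 were lower (0.118%). At an unadjusted p below 0.05, 1523 genes (7.18%) were higher and 1335 (6.29%) were lower, and the median log2 fold change of all tested genes was 0.01. The libraries of the 2 genotypes did not overlap for any of the 77, but this also held for 21.1% of all tested genes in the higher direction and 20.6% in the lower. The count moved strongly with single libraries. It was 12 without sfr6-3 replicate 1, 39 without sfr6-3 replicate 2, 45 with double mutant replicate 2 removed and 656 with double mutant replicate 1 removed. The 656 held 76 of the 77, and the sets of 12, 39 and 45 held 10, 24 and 28 of them. All 4 of these refits called 8 genes: COB, BCB, ICL, AT4G36430, AT3G05905, AT5G01210, AT5G15950 and AT5G37125. Of the reads of AT5G15950, annotated as an adenosylmethionine decarboxylase, 2.4% were unique; its log2 fold change was 1.45 ± 0.15 (adjusted p = 0.00126), and 4.20 ± 1.13 in unique reads, where it was not called (adjusted p = 0.127).

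**Figure D1:**
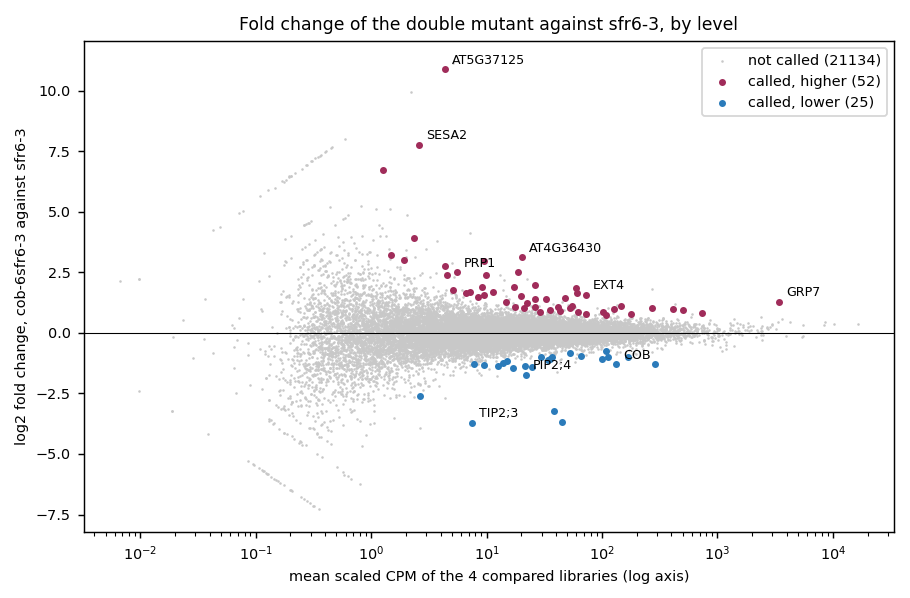
Each point is a gene, with the mean scaled CPM of the 4 compared libraries on a log axis and the log2 fold change of cob-6sfr6-3 against sfr6-3 on the other. The 52 genes called higher and the 25 called lower are coloured, and at low levels wide fold changes without a call can be seen on both sides of 0.

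**Figure D2:**
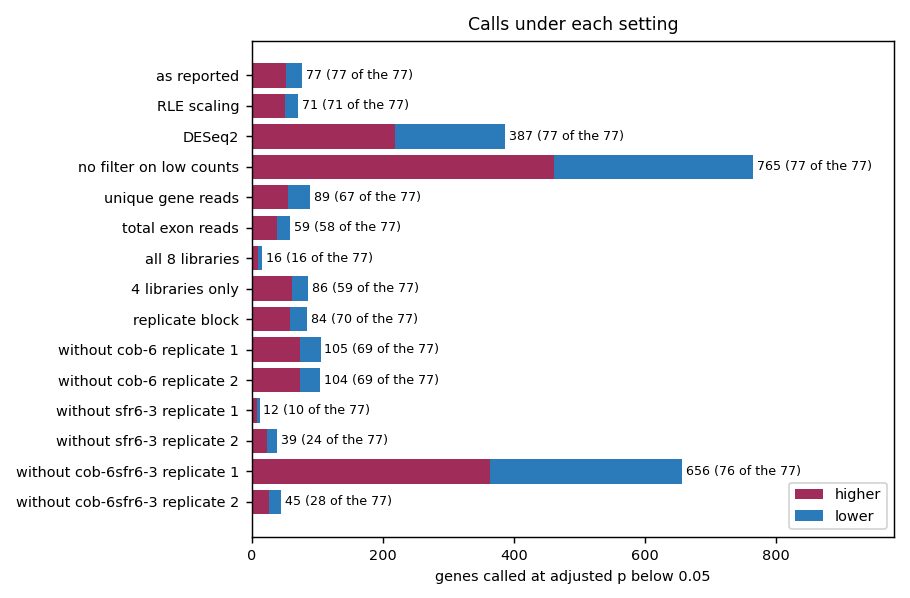
Bars give the number of genes called at an adjusted p below 0.05 as reported and under each of the other settings, split into higher and lower, with the number of the 77 reported genes each set holds. The counts run from 12 without sfr6-3 replicate 1 to 765 without a filter on low counts.

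The promoters of 5 genes described below are shown first, because 3 of them are root hair genes and 2 belong to the circadian clock, and a short sequence is known for each of these groups. The root hair element is the recognition sequence of the basic helix-loop-helix factors that drive root hair growth, and the evening element, AAATATCT, is bound by the clock factors CCA1 and LHY. Sequences are RefSeq's for assembly TAIR10.1, the 250 bases before the annotated gene start, read 5′ to 3′ on the strand of the gene, with each match on either strand in capitals. The motifs were chosen after the values were seen. RHS13 lies at chr4:993040-993289 on the minus strand, PRP1 at chr1:20504651-20504900 on the plus strand and XTH26 at chr4:14244040-14244289 on the plus strand. GRP7 lies at chr2:9266558-9266807 on the minus strand and FKF1 at chr1:25508389-25508638 on the plus strand.
RHS13: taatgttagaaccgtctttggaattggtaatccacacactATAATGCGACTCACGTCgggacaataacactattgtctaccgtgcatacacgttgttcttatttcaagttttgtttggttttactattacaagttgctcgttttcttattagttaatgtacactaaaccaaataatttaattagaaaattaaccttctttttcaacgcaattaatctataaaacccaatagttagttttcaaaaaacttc
PRP1: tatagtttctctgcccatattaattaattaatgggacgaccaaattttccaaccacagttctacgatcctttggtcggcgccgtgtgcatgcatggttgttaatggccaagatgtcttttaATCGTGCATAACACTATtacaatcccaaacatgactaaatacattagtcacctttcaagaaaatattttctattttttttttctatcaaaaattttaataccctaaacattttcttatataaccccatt
XTH26: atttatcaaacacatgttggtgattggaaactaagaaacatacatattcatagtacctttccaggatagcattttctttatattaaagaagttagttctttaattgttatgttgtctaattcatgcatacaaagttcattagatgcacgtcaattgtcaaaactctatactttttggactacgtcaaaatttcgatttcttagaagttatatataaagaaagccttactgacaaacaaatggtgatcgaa
GRP7: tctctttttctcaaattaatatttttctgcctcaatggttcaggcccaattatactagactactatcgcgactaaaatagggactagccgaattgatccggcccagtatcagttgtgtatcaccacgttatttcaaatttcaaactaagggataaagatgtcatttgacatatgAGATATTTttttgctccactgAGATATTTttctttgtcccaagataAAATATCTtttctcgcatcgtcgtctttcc
FKF1: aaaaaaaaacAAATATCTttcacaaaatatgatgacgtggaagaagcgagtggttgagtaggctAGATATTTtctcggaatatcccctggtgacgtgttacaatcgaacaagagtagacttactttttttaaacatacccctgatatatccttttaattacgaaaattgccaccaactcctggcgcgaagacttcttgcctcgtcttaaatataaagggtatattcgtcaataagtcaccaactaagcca
RHS13 and PRP1 each held 1 match to the root hair element, on the plus and the minus strand, and XTH26 held none in this window. Among 32835 promoters of nuclear genes of the table, 0.71% held the root hair element, and 8 of the 24 promoters of the root hair list did. Among called genes with a promoter in this set, 2 of 47 called higher held it (4.26%). Of those called lower, 1 of 25 did (4%), the peroxidase gene AT3G01190. GRP7 held 3 evening elements and FKF1 held 2. The evening element was found in 4.52% of all promoters and in 8 of the 15 of the clock list. It was found in 5 of 47 promoters of genes called higher and in 0 of 25 of genes called lower. The 2 motifs did not overlap in these windows. A match is a description of letters and not a bound site.

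Among peroxidases and extensins, secreted proteins that cross-link or build the wall's protein network, 4 genes each were called higher. Genes annotated as class III peroxidases use hydrogen peroxide to oxidise wall phenolics and proteins. AT4G36430 (chromosome 4, 17204478 to 17205966) stood at 3.51 and 4.79 CPM in sfr6-3 and at 30.9 and 41.5 CPM in the double mutant. No sfr6-3 library came near the double mutant, and the double mutant covered the level of cob-6, at 33.3 and 34.7 CPM. The log2 fold change was 3.12 ± 0.22 (adjusted p = 3.61e-05), and the gene was called without any 1 of the compared libraries. AT1G49570 stood at 2.11 and 4.23 CPM in sfr6-3 and at 20.2 and 12.9 CPM in the double mutant, a log2 fold change of 2.38 ± 0.36 (adjusted p = 0.0123). PRX52, a peroxidase known for its part in lignin formation, stood at 2.11 and 0.748 CPM against 7.54 and 7.64 CPM, a log2 fold change of 2.41 ± 0.46 (adjusted p = 0.0493). Prx37, whose reads were 83.8% unique, stood at 7.57 and 7.03 CPM against 20.9 and 33.1 CPM, a log2 fold change of 1.89 ± 0.23 (adjusted p = 0.00303). In each of these 3 genes both double mutant libraries exceeded both sfr6-3 libraries, as in all 52 genes called higher and in 21.1% of all tested genes.

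1 peroxidase moved the other way. AT3G01190 stood at 133 and 136 CPM in sfr6-3 and at 66.1 and 62.1 CPM in the double mutant, with a log2 fold change of -1.07 ± 0.14 (adjusted p = 0.00572). Of 64 tested genes annotated as peroxidases, 4 were called higher and 1 lower, and the median log2 fold change of the family was 0.09. The family was formed from annotated products after the values were seen and is given as a description. Without sfr6-3 replicate 1, AT4G36430 alone of the 5 was called, with adjusted p-values of 0.192 for AT1G49570, 0.104 for PRX52, 0.104 for Prx37 and 0.0719 for AT3G01190. Without sfr6-3 replicate 2, PRX52 and Prx37 were not called (0.225 and 0.062), and without double mutant replicate 2 PRX52 was not (0.103). Without double mutant replicate 1, 9 peroxidases were called higher and 2 lower.

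Extensins are hydroxyproline-rich wall proteins that peroxidases link into a network. EXT4 (AT1G76930, chromosome 1, 28895301 to 28896883) stood at 29.5 and 43.0 CPM in sfr6-3 and at 109 CPM in both double mutant libraries. The WT libraries at 172 and 180 CPM and the cob-6 libraries at 192 and 262 CPM lay above both compared groups, so the gain in the double mutant left EXT4 short of the level without sfr6-3. The log2 fold change was 1.58 ± 0.20 (adjusted p = 0.00377). EXT10 stood at 11.7 and 8.86 CPM against 24.7 and 33.9 CPM, a log2 fold change of 1.51 ± 0.21 (adjusted p = 0.00911). EXT6 stood at 6.05 and 4.75 CPM against 12.6 and 21.8 CPM, a log2 fold change of 1.67 ± 0.28 (adjusted p = 0.0248). EXT11 stood at 4.06 and 2.43 CPM against 8.55 and 11.6 CPM, a log2 fold change of 1.63 ± 0.29 (adjusted p = 0.0307). For these 3 genes, cob-6 libraries ranged from 17.9 to 43.1 CPM and WT replicate 2 from 3.89 to 12.2 CPM.

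Of 19 tested genes annotated as extensins, a family also formed after the values were seen, 4 were called higher and 0 lower, and the median log2 fold change was 0.56. At an unadjusted p below 0.05, 8 were higher and 2 lower; AT1G23720, the extensin with the smallest p on the lower side, had a log2 fold change of -0.76 ± 0.15 (adjusted p = 0.0604). Which of the 4 were called changed with the library left out. Their log2 fold changes in these refits stayed between 1.22, for EXT6, and 2.05, for EXT11. Without sfr6-3 replicate 1 none was called by edgeR (adjusted p from 0.0833 to 0.192), without sfr6-3 replicate 2 only EXT4 was, and without double mutant replicate 2 EXT4 and EXT10 were, with 0.0851 for EXT6 and 0.103 for EXT11.

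**Figure D3:**
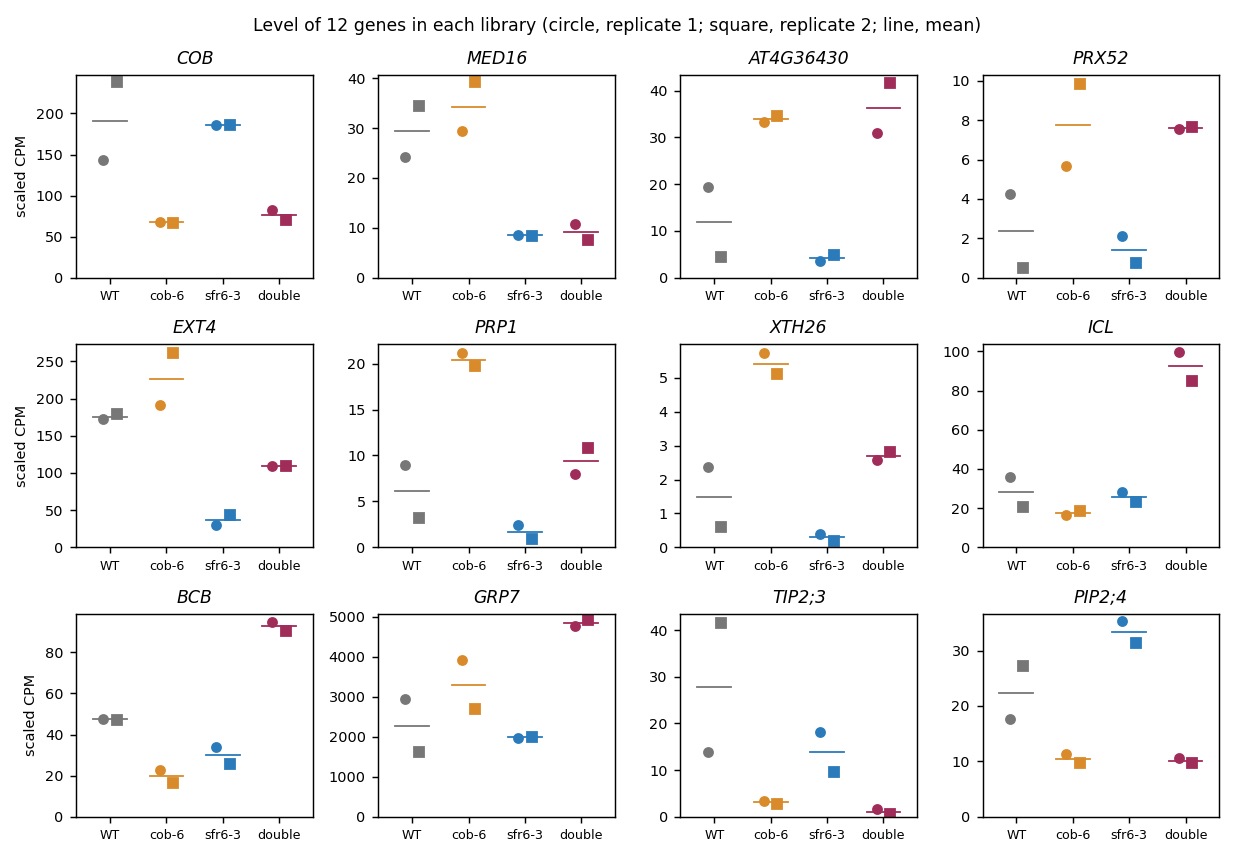
Panels show the level in scaled CPM of 12 genes in each of the 8 libraries, with circles for replicate 1, squares for replicate 2 and lines for the mean, and double standing for cob-6sfr6-3. COB fell from 187 CPM in sfr6-3 to 82.5 and 70.3 CPM in the double mutant, and AT4G36430 rose from 3.51 and 4.79 CPM to 30.9 and 41.5 CPM.

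Among genes of growing root hairs, 3 were called higher. PRP1, a proline-rich wall protein of root hairs, stood at 2.38 and 0.898 CPM in sfr6-3 and at 7.93 and 10.8 CPM in the double mutant. Its log2 fold change was 2.52 ± 0.37 (adjusted p = 0.0104). RHS13, a root hair specific proline-rich protein, stood at 39.0 and 30.1 CPM against 63.1 and 79.4 CPM, a log2 fold change of 1.04 ± 0.18 (adjusted p = 0.0282). XTH26, which remodels xyloglucan in root hairs, stood at 0.390 and 0.187 CPM against 2.56 and 2.82 CPM, a log2 fold change of 3.21 ± 0.56 (adjusted p = 0.0296). In all 3 genes the double mutant libraries lay below both cob-6 libraries, which stood at 21.1 and 19.7, 130 and 111, and 5.72 and 5.13 CPM in that order.

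All 24 genes of the root hair list were tested; 0 were called lower, 16 had a positive log2 fold change, and the median was 0.44. PRP3, another root hair proline-rich protein, had a log2 fold change of 1.07 ± 0.22 (adjusted p = 0.0618). The regulators RHD6, RSL4 and RSL2, the factors that read the root hair element, had log2 fold changes of 0.48 ± 0.77, -0.55 ± 0.63 and -0.50 ± 0.72, at levels of at most 4.14 CPM. PRP1 was the 1 root hair gene called without sfr6-3 replicate 1 and without double mutant replicate 2 (adjusted p of 0.0234 and 0.0467), none was called without sfr6-3 replicate 2 (0.0686 for PRP1, 0.193 for RHS13 and 0.197 for XTH26), and 5 were without double mutant replicate 1. The list's median was 0.61 without double mutant replicate 1 and 0.09 without replicate 2, and within the double mutant 18 of the 24 genes were higher in replicate 2. RHS13 had adjusted p-values of 0.115 and 0.11, and XTH26 of 0.186 and 0.0503, without sfr6-3 replicate 1 and without double mutant replicate 2.

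Markers of other root cell types stood mostly lower. Of 15 tested, 0 were called higher and 1 lower by edgeR, and 0 higher and 2 lower by DESeq2, and the median log2 fold change was -0.38. The list summed to 324 and 293 CPM in sfr6-3 and to 254 and 270 CPM in the double mutant. The endodermal gene CASP5, which was not called by edgeR, stood at 2.18 and 1.05 CPM in sfr6-3. It stood at 0 in double mutant replicate 1 and at 0.108 CPM in replicate 2. Green tissue markers summed to 67508 and 81791 CPM in sfr6-3 and to 80812 and 89406 CPM in the double mutant, with 0 of 24 called by edgeR or DESeq2 and 4 higher and 2 lower at an unadjusted p below 0.05. The part of either tissue's share in the gene changes was not tested.

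Among other wall genes the direction was split. XTH15, a xyloglucan-modifying enzyme like XTH26, stood at 14.0 and 13.0 CPM in sfr6-3 and at 5.56 and 5.22 CPM in the double mutant, and fell by 1.33 ± 0.25 on the log2 scale (adjusted p = 0.0493). Of 24 tested xyloglucan genes, 1 was called higher and 1 lower, with a median log2 fold change of 0.11. XTH15 was not called without sfr6-3 replicate 1, sfr6-3 replicate 2 or double mutant replicate 2, with adjusted p-values of 0.318, 0.189 and 0.114. Of 17 wall glycoprotein genes, 2 were called higher, EXT4 and PRP1, and the arabinogalactan protein AGP30 stood at 14.9 and 12.6 CPM against 4.04 and 4.22 CPM (log2 fold change -1.74 ± 0.35, adjusted p = 0.0618). The expansin EXPA16, a wall-loosening protein, stood at 11.9 and 10.4 CPM against 24.3 and 23.3 CPM and was called higher (log2 fold change 1.09 ± 0.19, adjusted p = 0.0282); its adjusted p was 0.192, 0.2 and 0.0533 without sfr6-3 replicate 1, sfr6-3 replicate 2 and double mutant replicate 2.

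Cellulose synthesis itself gave no call, which in a list of 17 genes is near the 0.363% called among all tested genes. All 17 genes of primary wall cellulose synthesis were tested, 0 passed the threshold with edgeR or DESeq2 and 0 had an unadjusted p below 0.05, and the median log2 fold change was -0.01. The catalytic subunits CESA1, CEV1 (CESA3) and CESA6 had log2 fold changes of -0.15 ± 0.16, -0.08 ± 0.16 and 0.05 ± 0.15. The range of the list ran from -1.42, for CESA9 at under 2 CPM, to 0.36. The other members of the COBRA family were not called either. Per length, on the deposited RPKM scale (exon reads relative to exon length and library total), COB stood at 106 and 102 in sfr6-3 and 43.2 and 37.5 in the double mutant. The next highest relatives, COBL1, COBL5 and COBL7, stood between 4.56 and 9.55 RPKM in these 4 libraries, so COB remained several times above each of them in both groups. COBL7 had a log2 fold change of 0.45 ± 0.19 (adjusted p = 0.315) and COBL2 of -0.82 ± 0.44 (adjusted p = 0.439).

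The lower genes included aquaporins, the water channels of the plasma membrane and the vacuole. TIP2;3, a tonoplast channel of the root, stood at 18.2 and 9.54 CPM in sfr6-3 and at 1.67 and 0.511 CPM in the double mutant. Its log2 fold change of -3.71 ± 0.51 was the largest fall among the 25 genes (adjusted p = 0.00865). PIP2;4, a plasma membrane channel, stood at 35.4 and 31.4 CPM against 10.5 and 9.63 CPM, a log2 fold change of -1.73 ± 0.19 (adjusted p = 0.00185). For both channels the double mutant reached or passed the level of cob-6, at 3.46 and 2.79 CPM and at 11.3 and 9.64 CPM. Of 27 tested aquaporins, 2 were called lower and 0 higher, and the median log2 fold change was -0.17; the family was formed after the values were seen. Without sfr6-3 replicate 1 neither was called (0.192 for TIP2;3 and 0.0719 for PIP2;4), and both were called without any other 1 of the compared libraries.

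Among lipid-transfer-like and major latex proteins, 5 genes were called lower. AT5G46900 and AT5G46890, neighbouring genes for lipid-transfer-like proteins, stood at 32.7 and 29.5 CPM and at 42.8 and 29.4 CPM in sfr6-3. In the double mutant they stood at 11.5 and 12.9 CPM and at 13.8 and 13.5 CPM. The log2 fold changes were -1.35 ± 0.20 (adjusted p = 0.0101) and -1.41 ± 0.23 (adjusted p = 0.0227), with 81.7% and 80.4% of their reads unique. With AT4G12520, of whose reads only 28.1% were unique, 3 of 55 tested lipid-transfer-like genes were called lower and 0 higher, against a median log2 fold change of -0.13. In unique reads AT4G12520 had a log2 fold change of -1.19 ± 0.25 and was not called (adjusted p = 0.0537). MLP329 and MLP34, members of the major latex protein family, had log2 fold changes of -1.11 ± 0.19 (adjusted p = 0.0282) and -1.01 ± 0.19 (adjusted p = 0.0441), and 2 of 8 tested members were called. Without sfr6-3 replicate 1 none of these 5 was called (adjusted p from 0.193 for AT5G46900 to 0.305 for AT5G46890). Without double mutant replicate 2 AT5G46900 was the 1 of them called (0.0256), without sfr6-3 replicate 2 AT5G46900 and MLP329 were not (0.0756 and 0.0601), and without double mutant replicate 1 MLP34 was not (0.0535).

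Of the clock list's 15 genes, 2 were called higher and 0 lower, with a median log2 fold change of 0.14. GRP7, an RNA-binding protein that forms a slave oscillator, stood at 1971 and 2000 CPM in sfr6-3 and at 4761 and 4918 CPM in the double mutant. The log2 fold change was 1.28 ± 0.18 (adjusted p = 0.00911). FKF1, a blue-light receptor that acts on flowering time, stood at 11.6 and 14.8 CPM against 27.7 and 35.1 CPM, a log2 fold change of 1.25 ± 0.20 (adjusted p = 0.0227). In both genes the groups were far apart beside their replicate spread, and the double mutant was above all 6 other libraries. For FKF1 that margin was narrow, with 27.7 CPM in double mutant replicate 1 and 27.5 CPM in cob-6 replicate 1. AT4G39260, the close relative GRP8, had a log2 fold change of 0.78 ± 0.15 (adjusted p = 0.0564). The morning factors LHY and CCA1 had log2 fold changes of -0.80 ± 0.19 (adjusted p = 0.1) and -0.69 ± 0.17 (adjusted p = 0.12). The time of day of sampling is not given in the labels. GRP7 was not called without sfr6-3 replicate 1 or 2 (0.127 and 0.0612), FKF1 was not called without either of these (0.249 and 0.0756) or without double mutant replicate 2 (0.0815). The list had 3 genes called higher and 2 lower when double mutant replicate 1 was left out.

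BCB and ICL, each called without any 1 of the compared libraries, were higher in the double mutant than in every other library. ICL, isocitrate lyase of the glyoxylate cycle that turns seed lipid into sugar, stood at 28.2 and 23.0 CPM in sfr6-3 and at 99.6 and 85.2 CPM in the double mutant. Its log2 fold change was 1.85 ± 0.17 (adjusted p = 0.000391). The other 3 genes of seedling lipid mobilisation were not called, and MLS, malate synthase of the same cycle, stood at 17.8 and 13.2 CPM against 17.7 and 13.3 CPM. BCB, a blue copper protein of the cell surface known as a stress-induced gene, stood at 33.8 and 25.9 CPM against 94.9 and 90.5 CPM, a log2 fold change of 1.63 ± 0.19 (adjusted p = 0.0022). These were the 2 genes called under all 14 other settings.

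Seed storage transcripts were present at low levels and mostly in 1 library. SESA2, a seed storage albumin, had 0 and 1 reads in sfr6-3 and 91 and 251 reads in the double mutant. The ratio of the scaled reads was 285, with a 95% counting interval (exact binomial) from 50.8 to 11277 that covers counting error only, and its adjusted p was 0.00936. CRU3, a seed storage globulin, had 0 reads in both sfr6-3 libraries, 15 in double mutant replicate 1 and 739 in replicate 2, and was not called (adjusted p = 0.0617). CRA1 stood at 0 and 1.53 CPM in sfr6-3, at 0.117 CPM in double mutant replicate 1 and at 27.0 CPM in replicate 2. The 13 seed maturation genes summed to 3.75 and 2.96 CPM in sfr6-3 and to 4.62 and 80.9 CPM in the double mutant. Of these, 6 passed the filter on low counts, all with a positive log2 fold change and with 1 called. The median of the 6 was 2.59, and the list median was -2.35 without double mutant replicate 2. Genes could pass the filter through the double mutant, where the list summed highest, so their shared direction is no support for a rise of the list. SESA2 was not called without sfr6-3 replicate 1 (0.192), sfr6-3 replicate 2 (0.0778) or double mutant replicate 2 (0.0804).

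A gene with reads in the double mutant and none in sfr6-3 was AT5G37125, annotated only as an uncharacterised protein. It had 0 reads in both sfr6-3 libraries and 225 and 319 reads, or 8.74 and 8.58 CPM, in the double mutant. It also had 0 reads in WT replicate 2 and both cob-6 libraries. Against a floor of 3 reads over the 2 sfr6-3 libraries, or 0.0573 CPM, it was at least 151-fold higher. Its adjusted p was 0.0011, and it was called without any 1 of the compared libraries. The reverse, a steep fall in the double mutant, was seen for AT5G01210, an acyl-transferase family gene. It stood at 79.3 and 87.1 CPM against 6.88 and 6.05 CPM (log2 fold change -3.69 ± 0.32, adjusted p = 0.000295). Its cob-6 libraries differed, at 65.9 and 27.6 CPM, beside 79.1 CPM in WT replicate 2. AT3G05905, annotated as other RNA, stood at 77.4 and 62.6 CPM against 6.61 and 8.34 CPM (log2 fold change -3.22 ± 0.20, adjusted p = 1.69e-05). Its cob-6 libraries stood at 58.3 and 45.4 CPM, beside 48.7 CPM in WT replicate 2. Only 0.308% and 1.04% of the reads of these 2 genes were unique, so their values depend on how the authors' counting shared reads between copies. With unique reads AT3G05905 had a log2 fold change of -5.04 ± 1.54 and was not called (adjusted p = 0.166), and AT5G01210 did not pass the filter on low counts.

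Several other called genes can be named by what they do. AT3G02480, annotated as a late embryogenesis abundant protein, stood at 9.99 and 11.1 CPM in sfr6-3 and at 47.7 and 36.7 CPM in the double mutant, a log2 fold change of 2.0 ± 0.24 (adjusted p = 0.00279). AT5G19110, an aspartyl protease family gene, stood at 1.48 and 0.785 CPM against 5.98 and 9.31 CPM, a log2 fold change of 2.75 ± 0.35 (adjusted p = 0.00432). NRT1.7, which reloads nitrate into the phloem of old leaves, had a log2 fold change of 1.09 ± 0.18 (adjusted p = 0.0227), and MT2A, a metallothionein that binds copper, of 0.98 ± 0.17 (adjusted p = 0.0296). On the lower side, OXS3, a stress tolerance gene, stood at 27.2 and 22.0 CPM against 10.4 and 7.75 CPM, a log2 fold change of -1.45 ± 0.21 (adjusted p = 0.0101). IAMT1, which methylates the hormone auxin, stood at 4.72 and 4.38 CPM against 0.699 and 0.807 CPM, a log2 fold change of -2.58 ± 0.48 (adjusted p = 0.0441). AT2G20670, annotated as a putative sugar phosphate exchanger, stood at 444 and 368 CPM against 185 and 153 CPM, a log2 fold change of -1.27 ± 0.18 (adjusted p = 0.00911). AT4G35380, for a SEC7-like exchange factor, had a log2 fold change of -1.35 ± 0.26 at the edge of the threshold (adjusted p = 0.05), and HSFC1, a heat shock factor with 7.92% unique reads, of -1.28 ± 0.25 (adjusted p = 0.0493, and -0.33 ± 0.99 with adjusted p = 0.917 in unique reads). The groups did not overlap in any of these 9 genes, which held for all 77 called genes and so adds nothing to the calls. Among all tested genes it held for 21.1% in the higher direction and 20.6% in the lower. Without sfr6-3 replicate 1 only AT5G19110 of the 9 was called (0.0371); the others had adjusted p-values of 0.11 to 0.352. Without sfr6-3 replicate 2, AT5G19110, MT2A, IAMT1, AT4G35380 and HSFC1 were not called (0.0636, 0.179, 0.179, 0.158 and 0.197), and without double mutant replicate 2, MT2A, OXS3, IAMT1, AT2G20670, AT4G35380 and HSFC1 were not (0.111, 0.0533, 0.078, 0.078, 0.114 and 0.103).

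Of the 12 largest rises, picked among calls without overlap whose mean log2 CPM reached 1, 4 remain to be given. Some larger rises lay below that level and are not among the 12. They include AT3G28510, AT3G28580 and PLA2A, with log2 fold changes of 6.73 ± 1.14, 3.93 ± 0.69 and 3.02 ± 0.52. AT2G14230, an uncharacterised gene with 47.6% unique reads, stood at 2.42 and 1.83 CPM against 23.6 and 9.90 CPM, a log2 fold change of 2.97 ± 0.42 (adjusted p = 0.00911). AT3G51632, which had no unique read, stood at 5.70 and 5.35 CPM against 29.2 and 34.0 CPM, a log2 fold change of 2.51 ± 0.37 (adjusted p = 0.0101). UGT73B4, a glucosyltransferase with 22.9% unique reads, had a log2 fold change of 1.91 ± 0.36 (adjusted p = 0.0487, and 1.68 ± 0.62 with adjusted p = 0.249 in unique reads), and AT2G24600, an ankyrin repeat gene, of 1.76 ± 0.34 (adjusted p = 0.049). Each of the 4 was higher in both double mutant libraries than in either sfr6-3 library, and none was called without sfr6-3 replicate 1 (0.17 to 0.352) or replicate 2 (0.129 to 0.231). Without double mutant replicate 2, AT3G51632 and UGT73B4 were not called either (0.0518 and 0.167).

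Several of the programmes for which MED16 is known gave no edgeR calls in this comparison. Of all tested genes 0.363% were called, so 0 calls in lists this small is near that share and is no result about the programmes. At an unadjusted p below 0.05, 7.18% of all tested genes were higher and 6.29% were lower. Of 16 genes of iron regulation and storage, 0 were called by edgeR or DESeq2 and 6 higher and 1 lower had an unadjusted p below 0.05, and the median log2 fold change was 0.71, the largest of the lists besides the seed genes. The transcription factor bHLH38 stood at 8.62 and 7.59 CPM in sfr6-3 and at 22.9 and 17.0 CPM in the double mutant (log2 fold change 1.29 ± 0.41, adjusted p = 0.198). The ferritin FER1, which stores iron, stood at 68.9 and 51.2 CPM against 21.9 and 35.7 CPM (log2 fold change -1.06 ± 0.34, adjusted p = 0.201). The groups did not overlap in either gene, but the 2 cob-6 libraries themselves differed, at 1.73 and 6.36 CPM for bHLH38. Of 23 genes for making jasmonate or responding to it through MYC factors, 0 were called by edgeR, DESeq2 called 1 higher and 1 lower, 10 higher and 2 lower had an unadjusted p below 0.05, and the median was 0.48. Of 19 cold-regulated genes 0 were called by edgeR and 2 higher by DESeq2, with 4 higher and 1 lower at an unadjusted p below 0.05 and a median of 0.40. The 11 tested genes of iron uptake gave 0 edgeR calls, with 2 higher and 2 lower at an unadjusted p below 0.05 and a median of -0.11. Jasmonate and ethylene defence had 3 tested genes, 0 edgeR calls and a median of -0.06. Salicylic acid defence had 17 tested genes and 0 edgeR calls, with 2 higher and 0 lower at an unadjusted p below 0.05 and a median of 0.21. In all, 510 of the 559 genes in 35 lists were tested.

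**Figure D4:**
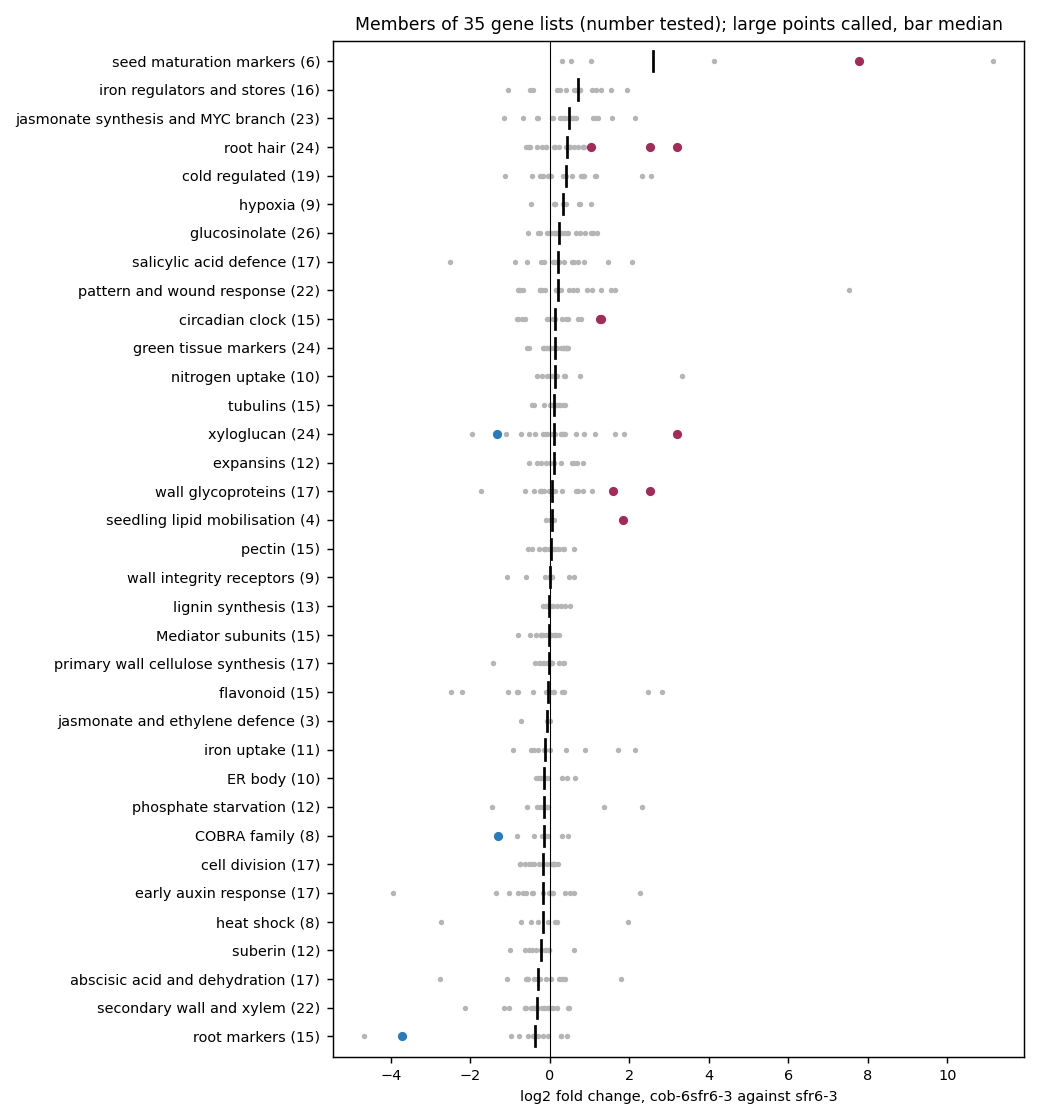
Each row is 1 of the 35 gene lists, with the number of its genes tested, and each point a gene at its log2 fold change of cob-6sfr6-3 against sfr6-3. Large coloured points passed the threshold and bars mark the list medians, from -0.38 for root markers to 2.59 for seed maturation markers. The seed median rests on 6 genes and was -2.35 without double mutant replicate 2.

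The changes were set beside those of the same allele where MED16 is intact, that is cob-6 against WT. The 2 fold changes share no library, but both fits drew on the sfr6-3, cob-6 and double mutant libraries for their spread. Calls in both comparisons are therefore not independent of each other. WT replicate 1 held 324504432 gene reads, and in unique reads none of 24551 genes was below the sum of the other 7 libraries, so this library was left out and WT was represented by replicate 2 alone, assumed to vary like the other groups. Of the 52 genes called higher in the double mutant, 39 had a positive log2 fold change in cob-6 against WT, 8 were called higher there and 2 were called lower. Called higher in both were the peroxidases AT4G36430, Prx37 and PRX52, the extensins EXT10 and EXT11, the root hair genes PRP1 and RHS13, and AT5G19110. Across all genes of that comparison 138 were called (0.621%), of which 40 were higher (0.18%) and 98 lower (0.441%). Of the 25 called lower, 20 had a negative log2 fold change in cob-6 against WT and 10 were called lower there, among them COB, TIP2;3, PIP2;4, MLP34, MLP329, AT3G01190, AT5G46890, AT5G46900 and XTH15. For AT4G36430 the log2 fold change was 2.92 ± 0.30 (adjusted p = 0.000512) in cob-6 against WT, beside 3.12 ± 0.22 with sfr6-3. For COB it was -1.82 ± 0.17 (adjusted p = 0.000393), beside -1.29 ± 0.15. With WT replicate 1 kept in the fit, 19 genes passed the threshold in that comparison (0.0889%). Among them in the same direction were 0 of the 52 and 4 of the 25 by edgeR, with 22 and 13 at an unadjusted p below 0.05; DESeq2 called 8 of each.

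**Figure D5:**
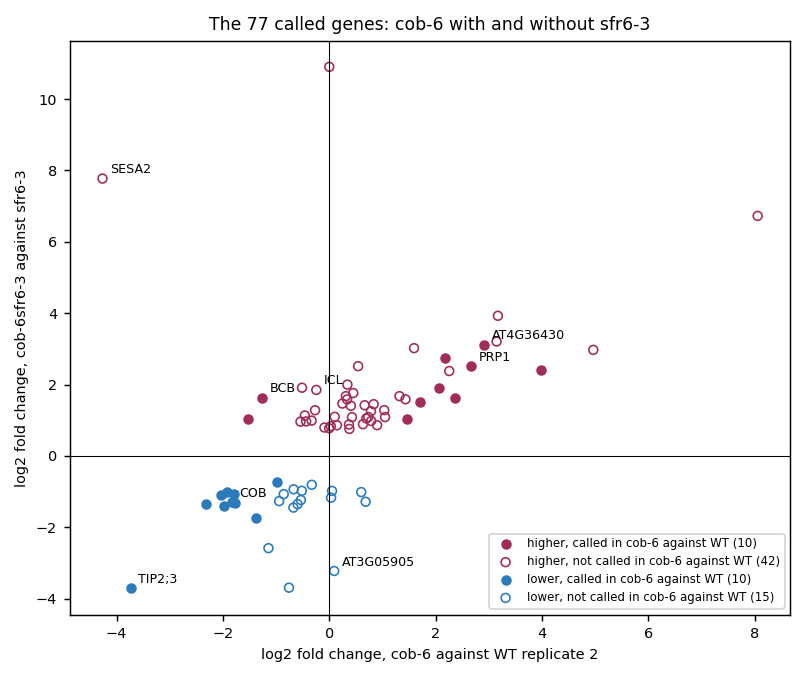
Each of the 77 called genes is placed by its log2 fold change in cob-6 against WT replicate 2 and in cob-6sfr6-3 against sfr6-3. Filled points were also called in cob-6 against WT; 10 such genes lie on the higher side, 8 of them in the same direction, and 10 on the lower side.

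Whether the change differed between the 2 backgrounds was tested with the interaction, which subtracts the log2 fold change of cob-6 over WT from that of the double mutant over sfr6-3, over all 8 libraries. It was called for 11 of 21384 genes (0.0514%), and for 8 of 22207 without WT replicate 1 (0.036%). COB was not called (0.21 ± 0.29, adjusted p = 0.86, and 0.53 with adjusted p = 0.629 without WT replicate 1). AT4G36430 was not called either, at 1.68 ± 0.65 (adjusted p = 0.503) over all 8 libraries and at 0.21 (adjusted p = 0.927) without WT replicate 1. TIP2;3 stood at -0.60 ± 0.78 (adjusted p = 0.849) and, without that library, at 0.000163 (adjusted p = 1.0). EXT4 had 1.22 ± 0.27 (adjusted p = 0.326) and 1.25 (adjusted p = 0.326). BCB was called. It had 47.7 and 47.2 CPM in the WT libraries and 22.7 and 16.6 CPM in those of cob-6, beside the rise from 33.8 and 25.9 CPM to 94.9 and 90.5 CPM described above. The cob-6 allele thus went with a lower level in 1 background and a higher level in the other. The interaction of BCB was 2.91 ± 0.26 (adjusted p = 0.00069), or 2.90 without WT replicate 1. ICL had 35.7 and 20.5 CPM in the WT libraries, 16.4 and 18.3 CPM in those of cob-6, and an interaction of 2.57 ± 0.33 (adjusted p = 0.0138). The count of calls was 4 without either sfr6-3 replicate 1 or sfr6-3 replicate 2, 31 without double mutant replicate 1, 22 without WT replicate 2 and 7 without cob-6 replicate 2.

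Genes near COB on chromosome 5 were counted separately. Of 465 tested genes within 1 Mb of COB, 1 was called higher and 4 lower, COB included, which is 1.08% against 0.363% of all genes. Within 5 Mb, 2 of 1675 were called higher and 7 lower, or 0.537%. The lower genes within 1 Mb besides COB were PIP2;4, MYB59 and AT5G59080, at 0.136, 0.429 and 0.664 Mb from COB. Chromosome 5 held 11 of the 25 lower genes and 13 of the 52 higher genes, with 4905 of the tested genes. The windows were chosen after the values were seen, and whether linked differences play a part was not tested.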

How the data were processed

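RNA of whole seedlings was sequenced as paired-end libraries after extraction with an RNeasy kit, per the labels' protocols. The authors deposited a workbook of whole-number counts per gene (total gene reads, unique gene reads, exon and intron reads) and RPKM values, per the file headers. The tools that aligned and counted the reads, their use of strand and the genome build of the table are not given in those sources. Table starts were shifted by 1 base to count from 1; 10599 of 32835 genes shared with the RefSeq annotation of TAIR10.1 then had the same start and end. Symbols and products come from RefSeq. The table held 0 columns of samples of other series.

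The counts as deposited were tested with edgeR 4.0.16 in R 4.3.3: TMM scaling, filterByExpr (21213 of 33602 genes), and the quasi-likelihood test with 1 mean for each of sfr6-3, cob-6sfr6-3 and cob-6. The cob-6 libraries enter the estimate of the spread only (3 residual and 9.92 prior degrees of freedom, biological coefficient of variation 0.221). WT was left out of this fit because WT replicate 1 is not independent of the other libraries. The interaction and cob-6 against WT were fitted over all 8 libraries and without WT replicate 1. Adjusted p-values are Benjamini-Hochberg over all tested genes, with a call below 0.05. Standard errors are the log2 fold change over the square root of F. Printed CPM use TMM factors over all 8 libraries, and the deposited RPKM values were used only for levels between COBRA family genes. The pipeline was tested on simulated data. Depth limits precision, and intervals and floors cover counting error only, since reads carry no molecular identifiers. DESeq2 1.42.0, other read classes, scalings and filters, and leaving out libraries were tried as alternatives.

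The comparison, gene lists and settings were chosen with earlier results of these data known. Named were COB and MED16, the 12 largest rises and falls among calls without overlap whose mean log2 CPM reached 1, at most 4 genes by smallest p from every list that had a call or a median of at least 0.5 either way, and the 6 smallest p of the interaction. Other genes named in the text, the families by product, the promoter motifs and the windows around COB were chosen after their values were seen. The authors' tables of another comparison were not used here. A result that the naming rule gives is not reported here.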

Additional observations from a re-analysis of the deposited data

Results flagged for a closer look

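The interaction test, over all 8 libraries with edgeR's quasi-likelihood test, singled out 11 genes whose change from sfr6-3 to the double mutant differed from that between WT and cob-6. These libraries include WT replicate 1, which is not independent of the others. On the positive side, the interaction (log2) was 2.91 for BCB, 2.57 for ICL, 12.5 for SESA2, 2.50 for the chloroplast gene ATCG00920, 2.48 for the chloroplast gene ATCG00340, 1.47 for the mitochondrial gene ATMG00020 and 1.40 for AT1G58235. SESA2 rests on 0 and 1 reads in sfr6-3, so its fitted value depends on the prior count. Leaving WT replicate 1 aside, its highest level outside the double mutant was 0.852 CPM, for WT replicate 2. WT replicate 1 held 369 reads of this gene (1.14 CPM), beside 91 and 251 for the double mutant libraries. Its level cannot be read as one without the double genotype, because that library is not independent of the others. ATCG00920 had 0.175% unique reads.

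HEI10 and MRD1, whose spans overlap on chromosome 1 (19963267 to 19966952 and 19963047 to 19964712), had interactions of 3.87 and 6.14. Strand was not stated for the counting, so their reads cannot be told apart, and 25.5% and 14.0% of them were unique. In the cob-6 libraries MRD1 had 1.08 and 0.369 CPM, beside 17.0 and 42.7 CPM for WT, 13.0 and 18.6 CPM for sfr6-3 and 18.6 and 36.3 CPM for the double mutant. HEI10 had 1.88 and 2.34 CPM in cob-6, beside 12.6 and 13.5 CPM for WT, 13.1 and 7.18 CPM for sfr6-3 and 22.6 and 25.4 CPM for the double mutant. For both genes cob-6 alone was the low group. Neither was called in the double mutant against sfr6-3 (adjusted p = 0.0866 for HEI10 and 0.327 for MRD1).

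On the negative side stood AT3G05905 at -3.45 and AT5G01210 at -3.29, with 1.04% and 0.308% unique reads. Without WT replicate 1, AT1G58235, AT5G01210 and ATMG00020 were not called, with adjusted p-values of 0.0996, 0.0588 and 0.0689. With unique reads 4 of the 11 were called.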

How the results depend on the processing

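Replicate numbers did not pair the samples: deviations of same-numbered libraries of sfr6-3 and the double mutant correlated at -0.0166, and at 0.0535 and 0.0213 with cob-6. With the replicate block the comparison called 84 genes (70 of the 77), the interaction 8 and cob-6 against WT 21.

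The 77 calls became 71 with RLE scaling, 89 with unique reads, 59 with exon reads and 86 with the 4 compared libraries only. The 86 held 59 of the 77. DESeq2 called 387 genes, the fit with no filter on low counts 765 and the fit with all 8 libraries 16. DESeq2 and no filter held all 77. Leaving out libraries gave 12 to 656. Of the 32 named genes called, 11 were called with all 8 libraries, and 8 to 32 when a library was left out. Lists with a median of at least 0.5 either way numbered 2 as reported and 2 to 5 without a library. The interaction (11 calls) gave 82 with DESeq2, 4 with unique reads, 224 with no filter and 4 to 31 without a library. The 19 calls of cob-6 against WT became 131 with DESeq2, 356 with no filter and 0 to 138 without a library: 138 without WT replicate 1 and 0 with edgeR without cob-6 replicate 1 or 2 (704 and 722 at an unadjusted p below 0.05).

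Signs turned for 4 named genes, none called: MLS (0.228 without sfr6-3 replicate 1 and 0.187 without double mutant replicate 2), MED16 (-0.19 without double mutant replicate 1), CRA1 and PER1 (both without double mutant replicate 2). Their log2 fold changes without a library ran from -0.224 to 0.228 for MLS, -0.19 to 0.345 for MED16, -2.67 to 11.6 for CRA1 and -2.29 to 2.39 for PER1. The causes were not tested. All other named genes kept their direction under the settings run. With 2 libraries per genotype and leave-one-out fits resting on 1, which assume that the lone library varies like the other groups, small changes were not detectable at this depth of replication.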
